A study of Rattus norvegicus with 6 samples.

Results

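The genes described here are 43 proteoglycans and matricellular proteins, taken by gene symbol from the Cufflinks transcript tables of Schwann cell precursors (SCPs) and repair Schwann cells (RSCs) of the rat. The list holds the lecticans, the hyaluronan genes beside them, small leucine-rich proteoglycans, glypicans, syndecans, basement membrane and membrane-spanning proteoglycans, tenascins, SPARC proteins, thrombospondins, periostin, fibulins, matrilin-2 and fibronectin. Of the 43 symbols, 40 had rows among the 29468 symbols of the tables, and 20494 of those symbols had a value above 0 somewhere. Hspg2, Gpc6 and Thbs3 had no row and were not analysed here. The members were chosen by family and symbol, with earlier results of these data known.

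RNA was sequenced from 3 SCP preparations and 3 RSC preparations, and all 6 came from wild type LEWIS rats. SCPs came from the sciatic nerve and brachial plexus of both sides at embryonic day 14 and were untreated. RSCs came from the distal stump of the sciatic nerve of rats labelled as 10 weeks old, 1 week after the nerve was cut. Both were dissociated with enzymes, and cells that stuck to an uncoated flask, which fibroblasts and macrophages do, were then discarded before RNA was taken. No sorting step is given in the sources used here. In the study's immunostaining most but not all cells carried the Schwann lineage marker Sox10, but those cells had been plated and cultured. RNA was taken from cells in suspension, so the staining does not give the purity of the sequenced samples. A sample can still hold other cells of the nerve. The labels do not say whether a preparation pools animals, and p-values measure only the spread between the 3 preparations of a group.

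Proteoglycans are core proteins that carry sulfated sugar chains of chondroitin, dermatan or heparan sulfate. Chondroitin sulfate proteoglycans of the lectican type bind hyaluronan and restrain axon growth in injured nervous tissue, whereas heparan sulfate proteoglycans hold growth factors and laminin at the cell surface and in the basal lamina. Matricellular proteins such as tenascins, thrombospondins and periostin are secreted into the matrix and tune cell adhesion and migration more than they bear load. In peripheral nerve both Schwann cells and endoneurial fibroblasts make this matrix.

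Levels are FPKM (fragments per kilobase of transcript, scaled by library size), summed over the named transcripts of a gene. Sox10, the transcription factor of the Schwann lineage, was at 175 to 181 FPKM in SCPs and 143 to 149 in RSCs, and S100b, a marker of later Schwann cells, was at 3.21 to 19.3 and 782 to 924. Fibroblast markers summed to 608 to 945 FPKM in SCPs and 4035 to 5082 in RSCs, and 7 of the 9 with rows were higher in every RSC sample. Leukocyte markers summed to 14.0 to 40.5 and 2196 to 2646 FPKM, with 9 of 10 higher in every RSC sample and Cd3e listed at 0 in all SCP samples. Skeletal muscle markers (56.7 to 219 in SCPs and 23.3 to 28.7 in RSCs) and chondrogenic or limb mesenchyme markers (102 to 136 and 14.4 to 21.5) went the other way as sums, although Des (6.03 to 13.3 and 23.0 to 28 FPKM) and Sox9 (2.80 to 3.28 and 5.13 to 6.94) were higher in every RSC sample. Myod1, Myf5, Col9a1 and Matn1 were listed at 0 in all RSC samples. For comparison, of the 13003 genes averaging 1 FPKM or more, 24.9% were higher in every RSC sample and 33.7% in every SCP sample. Perineurial markers summed to 27.8 to 37.6 and 91.9 to 151 FPKM, endothelial markers to 31.8 to 54.2 and 55.1 to 66.1, mural markers to 72.7 to 256 and 94.0 to 156, and neuronal markers to 26.6 to 41.5 and 17.5 to 23.9. In such bulk samples, fewer cells of a type and less RNA per cell cannot be told apart, and the part of these other cells in the results below was not tested except where a value is given.

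Transcripts of these matrix genes were more abundant in RSCs than in SCPs. The 40 members together summed to 2620 ± 280 FPKM in SCPs (SD, n = 3) and 8499 ± 937 in RSCs, which was 0.470% and 1.66% of the FPKM of all named transcripts. Of the 34 members that passed the filter of a mean of at least 1 FPKM, 20 were higher in RSCs at an unadjusted limma p under 0.01, where 18.1% of all 13003 tested genes were, and 7 were higher in SCPs, where 22.4% of all tested genes were. In either direction 27 members (79.4%) were called, against 40.5% of all tested genes. Over 4-fold, 15 members were higher in RSCs and 2 in SCPs, and the shares among all tested genes were 7.81% and 3.78%, or 11.6% in either direction. All 3 RSC values lay above all 3 SCP values in 21 members and below them in 8, where 24.9% and 33.7% of all tested genes did so and 58.6% did so either way. The median log2 fold change (RSC minus SCP, on log2(FPKM + 1), as throughout) was 1.83 over the tested members and -0.17 over all tested genes. Cd44, Fmod and Prelp had a mean under 1 FPKM in SCPs, and Aspn and Gpc2 in RSCs, so these 5 passed the filter only through the other group.

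**Figure D1:**
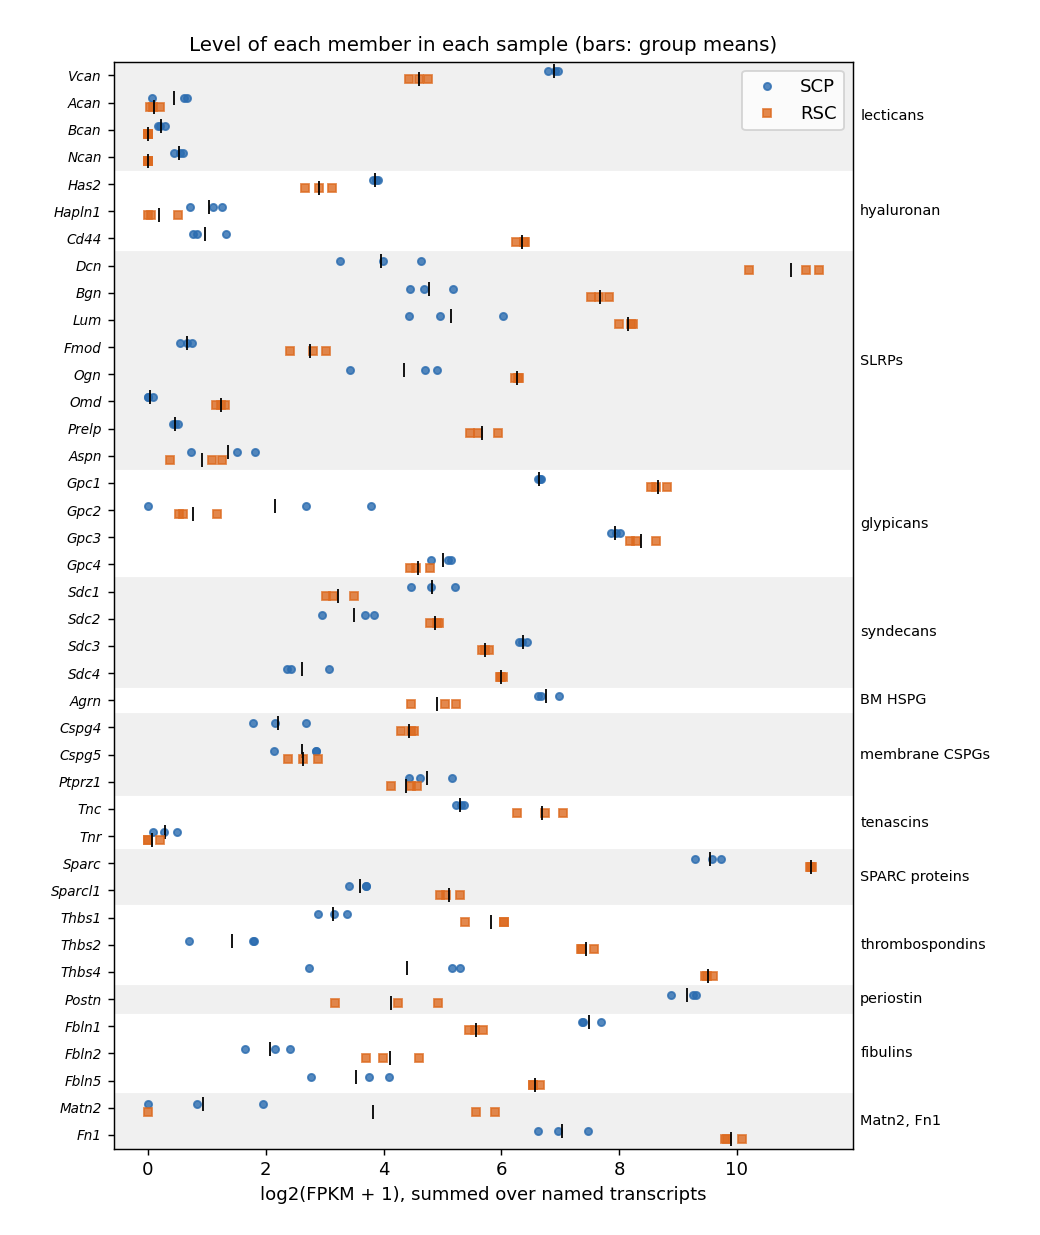
Level of each of the 40 members with rows, as log2(FPKM + 1) on the horizontal axis, in each of 3 SCP samples (circles) and 3 RSC samples (squares), with a bar at each group mean; BM HSPG is agrin, the basement membrane heparan sulfate proteoglycan, CSPGs are chondroitin sulfate proteoglycans and SLRPs are small leucine-rich proteoglycans. The SCP and RSC points of Dcn, Cd44, Prelp, Thbs2 and Postn lie far apart, and those of Cspg5, Ptprz1 and Aspn overlap.

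The ranking of the members by level showed the change of makeup. By mean FPKM of named transcripts, Sparc was the highest member in both groups. In SCPs it was followed by Postn, Gpc3, Fbln1, Fn1, Vcan, Agrn and Gpc1, and in RSCs by Dcn, Fn1, Thbs4, Gpc1, Gpc3, Lum and Bgn. The order changed with unnamed transcripts added. In RSCs, Dcn was then at 2744, 2697 and 2308 FPKM against 2428, 2446 and 2488 for Sparc. Matn2 was at 268, 255 and 276 there, against 182, 226 and 201 for Bgn. In SCPs, Agrn was at 149, 173 and 165 FPKM, against 110, 119 and 124 for Vcan. The shares below are of named FPKM. Periostin alone held 21.7% of the members' FPKM in SCPs and 0.222% in RSCs. The small leucine-rich proteoglycans held 3.94% in SCPs and 31.1% in RSCs, and the thrombospondins 1.33% and 11.3%. In RSC 1 the small leucine-rich proteoglycans held 23.2%, leaving out an unnamed Dcn transcript, against 36.0% and 33.9% in RSC 2 and RSC 3. The SPARC proteins held nearly the same share in both, 28.9% and 29.5%.

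**Figure D2:**
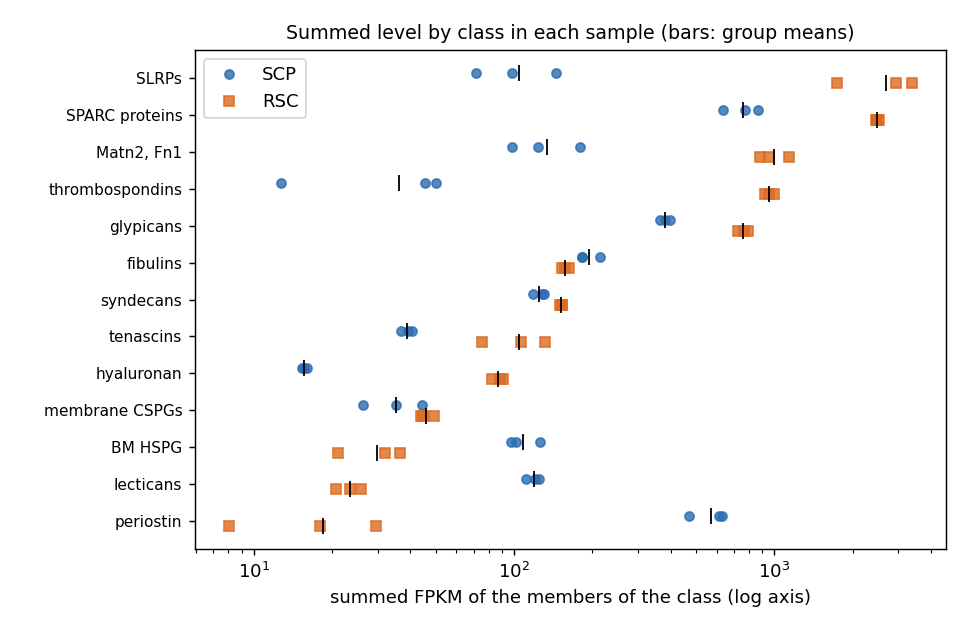
Summed FPKM of the members of each class (log axis) in each of 3 SCP samples (circles) and 3 RSC samples (squares), with a bar at each group mean. SLRPs (105 and 2682 FPKM on average in SCPs and RSCs) and thrombospondins (36.1 and 958) lie furthest to the RSC side, and periostin (570 and 18.5) and the lecticans (119 and 23.4) lie to the SCP side.

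RefSeq gives a start site for 30 of the 43 members on the GRCr8 assembly, a later build than the rn6 build of the tables. The 250 bases before that site are shown for the 2 called members with the largest change in each direction that have an entry, Cd44 and Thbs4 (higher in RSCs) and Postn and Vcan (higher in SCPs), since the level of these transcripts is what separated the groups. They are written 5′ to 3′ on the gene's strand, and capitals mark matches, on either strand, to 4 motifs: TGANTCA (the AP-1 site), GGAATG (the TEAD site), TATAAA (the TATA box) and GGGCGG (the GC box). The Cd44 window is chr3:109699425-109699674 on the minus strand and the Thbs4 window is chr2:25760346-25760595 on the minus strand. The Postn window is chr2:140677811-140678060 on the plus strand and the Vcan window is chr2:22595956-22596205 on the minus strand.
Cd44: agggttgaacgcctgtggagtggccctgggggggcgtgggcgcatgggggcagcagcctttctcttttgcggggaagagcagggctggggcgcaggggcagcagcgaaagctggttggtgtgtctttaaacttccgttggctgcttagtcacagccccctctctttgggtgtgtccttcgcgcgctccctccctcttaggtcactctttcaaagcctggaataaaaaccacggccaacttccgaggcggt
Thbs4: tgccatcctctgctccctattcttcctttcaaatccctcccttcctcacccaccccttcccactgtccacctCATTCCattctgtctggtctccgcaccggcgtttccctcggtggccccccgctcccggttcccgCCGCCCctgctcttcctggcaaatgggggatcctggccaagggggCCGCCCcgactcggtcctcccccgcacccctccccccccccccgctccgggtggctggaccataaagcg
Postn: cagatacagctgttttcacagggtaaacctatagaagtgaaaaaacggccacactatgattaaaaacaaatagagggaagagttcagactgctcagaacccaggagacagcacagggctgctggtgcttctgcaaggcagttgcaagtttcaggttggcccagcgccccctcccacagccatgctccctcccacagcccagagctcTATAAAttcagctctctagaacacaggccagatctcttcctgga
Vcan: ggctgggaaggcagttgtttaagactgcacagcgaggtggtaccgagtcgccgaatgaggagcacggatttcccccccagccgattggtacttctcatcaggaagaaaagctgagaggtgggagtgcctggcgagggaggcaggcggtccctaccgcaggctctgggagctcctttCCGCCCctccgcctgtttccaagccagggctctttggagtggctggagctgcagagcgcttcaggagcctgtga
Cd44 held none of the 4 motifs. Thbs4 held GGAATG with its first base 178 bases before the start, and GGGCGG at 114 and at 69 bases, all 3 on the opposite strand. Postn held TATAAA 44 bases before the start, and Vcan held GGGCGG on the opposite strand 74 bases before it. Over all 30 members with an entry, TGANTCA was found in 0, GGAATG in 5, TATAAA in 4 and GGGCGG in 19. Among the first windows of 27457 rat genes, the same motifs were found in 6.36%, 11.76%, 13.09% and 32.39%. A match is only a match of letters, and no binding was measured.

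Versican (Vcan), the large lectican of embryonic and wounded connective tissue, was the only lectican with a substantial level. Its gene lies on chromosome 2 of rn6, from 18490102 to 18587340. It was at 110, 119 and 124 FPKM in SCPs and 20.6, 25.8 and 23.4 in RSCs, so every SCP sample was above every RSC sample. The log2 fold change was -2.30 (SE 0.11, adjusted p = 4.73e-05). The other lecticans, which are best known from cartilage (Acan) and brain (Bcan and Ncan), were too low to test: Acan was at 0.0509 to 0.587 FPKM in SCPs and 0.0282 to 0.149 in RSCs. Bcan (0.129 to 0.217 FPKM in SCPs) and Ncan (0.362 to 0.515) were listed at 0 in all RSC samples, and an exact 0 in such tables can be a failed estimate.

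Versican transcripts also differed in makeup. Versican is spliced into forms that hold both, one or neither of 2 large exons to which chondroitin sulfate is attached, and the tables list 4 transcripts of it, of 11943, 9143, 6735 and 3837 bases. The longest held 59.5%, 64.2% and 60.6% of the Vcan FPKM in SCPs and 13.1%, 13.6% and 0% in RSCs. The 9143-base transcript held the rest, and the shorter 2 were listed at 0 in every sample. In FPKM, the 11943-base transcript was at 65.7, 76.6 and 75.3 in SCPs and 2.70, 3.5 and 0 in RSCs, whereas the 9143-base transcript was at 44.6, 42.8 and 48.9 and at 17.9, 22.3 and 23.4. The groups did not overlap in either transcript, and the fall was steeper in the longer one. Cufflinks marked the split as resting on low data in SCP 3. Transcript shares were not part of the genome-wide fit, and an exact permutation test of 3 against 3 samples cannot go below a two-sided p of 0.1.

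**Figure D3:**
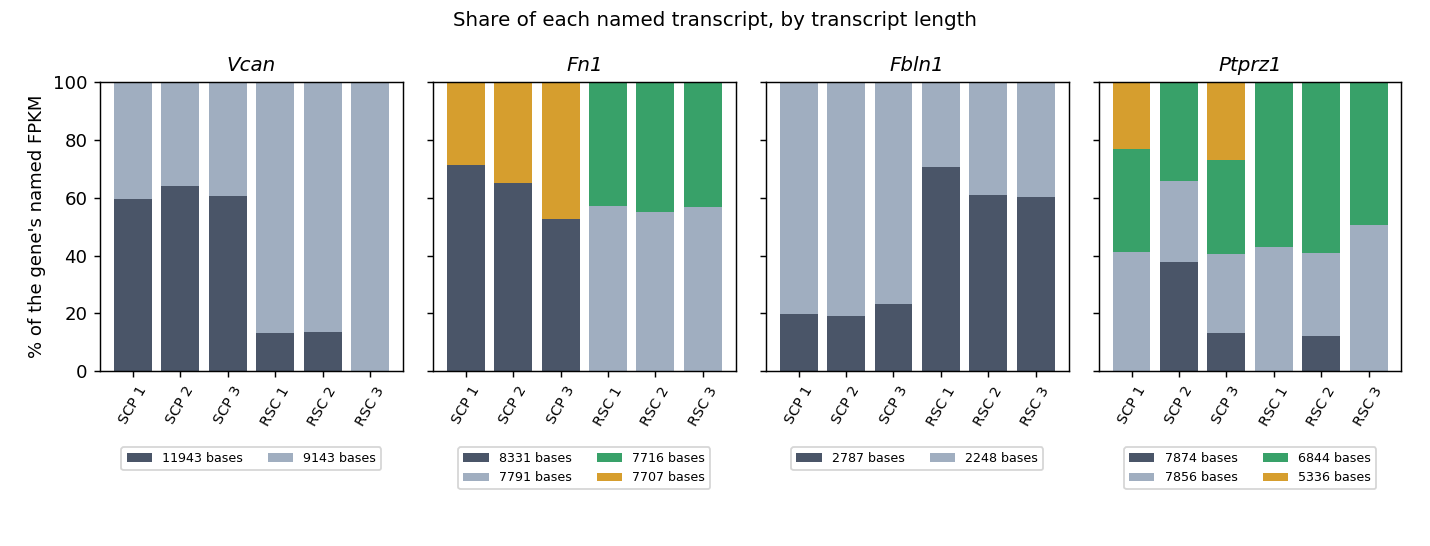
Share of each named transcript in the gene's named FPKM (vertical axis, percent) in each of the 6 samples, for Vcan, Fn1, Fbln1 and Ptprz1, with transcripts told apart by their length. The 11943-base transcript takes about the lower 60% of Vcan in SCP samples and 0% to 13.6% in RSC samples, and the Fn1 samples of the groups have no transcript in common.

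The genes for hyaluronan, the unsulfated chain that lecticans bind, moved in opposite directions. Has2, the main hyaluronan synthase of development, was at 13.9, 13.6 and 13.1 FPKM in SCPs and 7.68, 6.50 and 5.38 in RSCs, without overlap. Its log2 fold change was -0.96 (SE 0.16, adjusted p = 0.0042). Cd44, the cell surface receptor for hyaluronan, was at 0.709, 0.788 and 1.49 FPKM in SCPs and at 82.9, 75.1 and 83.2 in RSCs. It was close to 1 FPKM in every SCP sample, and its log2 fold change of 5.37 (SE 0.18, adjusted p = 2.41e-05) was larger than that of 99.5% of the tested genes. The gene lies on chromosome 3 of rn6, from 92695083 to 92783807. Leukocytes express Cd44 as well, and the leukocyte markers given above were higher in the same samples; their part was not tested. Hapln1, the link protein that fixes lecticans to hyaluronan, was at 0.638 to 1.40 FPKM in SCPs and 0 to 0.424 in RSCs, under the filter. With unnamed transcripts added it was at 1.23, 2.29 and 3.05 and at 0, 0.424 and 0.0423 FPKM, a log2 fold change of -1.44 (SE 0.28, adjusted p = 0.00388).

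Small leucine-rich proteoglycans, which coat collagen fibrils and bind growth factors of the TGF-β family, were the class with the most members higher in RSCs. Of 7 tested, 6 passed p under 0.01 with the higher level in RSCs, 5 of them over 4-fold, where 18.1% and 7.81% of all tested genes were, and the other was not called. Decorin (Dcn), on chromosome 7 from 38742250 to 38782282, was at 8.60, 14.9 and 23.9 FPKM in SCPs and 1175, 2697 and 2308 in RSCs. It went from rank 4409 of all genes to rank 17, with a log2 fold change of 6.96 (SE 0.45, adjusted p = 1.25e-04), the largest of the members on this scale, while the ratio of group means was 130 for Dcn and 134 for Prelp. RSC 1 read lower than the other RSC samples, and with the unnamed transcripts at the locus added it stood at 2744 FPKM. Its 1807-base transcript was listed at 0 in all SCP samples and held 59.0%, 35.9% and 38.7% of the named Dcn FPKM in RSCs. The share in RSC 1 leaves out an unnamed Dcn transcript at 1569 FPKM, so it cannot be set beside the other 2.

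Prelp, a heparin-binding member of this class found beside basement membranes, was at 0.420, 0.342 and 0.371 FPKM in SCPs and 43.4, 60.5 and 47.9 in RSCs, a log2 fold change of 5.21 (SE 0.17, adjusted p = 2.36e-05). Part of its level rests on a transcript marked as low data in all samples. Lumican (Lum), which spaces collagen fibrils, was at 30.3, 20.5 and 64.1 and at 256, 301 and 294 FPKM. SCP 3 read highest among the SCPs but stayed well below every RSC sample, and the log2 fold change was 3.01 (SE 0.40, adjusted p = 0.0017). Biglycan (Bgn), the close relative of decorin, was at 20.8, 35.2 and 24.7 and at 182, 226 and 201 FPKM, a log2 fold change of 2.90 (SE 0.20, adjusted p = 1.66e-04). Fibromodulin (Fmod) was low in both groups, at 0.689, 0.586 and 0.462 and at 5.94, 7.14 and 4.33 FPKM. Its log2 fold change was 2.09 (SE 0.24, adjusted p = 9.66e-04).

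Osteoglycin (Ogn) was at 9.74, 25.0 and 29.1 FPKM in SCPs and 78.2, 76.6 and 74.3 in RSCs, a log2 fold change of 1.93 (SE 0.39, adjusted p = 0.0089). Without any 1 of the RSC samples its p rose to between 0.0116 and 0.0122, just past the threshold. Asporin (Aspn), which carries no sugar chain of this kind, was at 0.651, 1.86 and 2.52 and at 1.13, 0.303 and 1.39 FPKM, so the groups overlapped. Its log2 fold change was -0.44 (95% interval -1.43 to 0.54, adjusted p = 0.406). Ogn and Aspn are each annotated at 2 places on chromosome 17 of rn6, so reads shared between the copies make their levels uncertain. Osteomodulin (Omd) was at 0 to 0.0604 FPKM in SCPs and 1.22 to 1.49 in RSCs and was not tested. Decorin, lumican and osteoglycin are also products of nerve fibroblasts, and the fibroblast markers above were higher in the same 3 samples; their part was not tested. Within the class the makeup changed: decorin held 14.6% ± 2.25 (SD, n = 3) of the summed named FPKM in SCPs and 75.4% ± 6.93 in RSCs, and lumican 35.8% ± 13 and 11.2% ± 3.05. The RSC 1 shares, 67.4% for decorin and 14.7% for lumican, leave out the unnamed Dcn transcript. In RSC 2 and RSC 3 decorin held 80.0% and 78.7%, and lumican 8.94% and 10.0%.

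Glypicans, heparan sulfate proteoglycans held on the membrane by a lipid anchor, differed among themselves. Gpc1, a glypican of Schwann cells, was at 97.5, 99.4 and 101 FPKM in SCPs and 449, 370 and 392 in RSCs. The replicates of each group were tight and far apart, with a log2 fold change of 2.01 (SE 0.09, adjusted p = 3.84e-05). Gpc3, a glypican of embryonic mesenchyme that restrains growth, was high in both groups, at 245, 257 and 231 and at 290, 395 and 311 FPKM. The samples of the groups did not overlap, but the log2 fold change of 0.43 (SE 0.13, adjusted p = 0.035) did not pass p under 0.01, and with median-of-ratios scaling it was 0.64 and did. Gpc4 was at 27.0, 34.5 and 33.1 and at 22.4, 26.5 and 20.8 FPKM, a log2 fold change of -0.42 (95% interval -0.78 to -0.07, adjusted p = 0.0563). Thus Gpc1 moved from 26.1% ± 1.37 (SD, n = 3) of glypican FPKM in SCPs to 53.3% ± 6.16 in RSCs, and Gpc3 from 64.1% ± 0.789 to 43.6% ± 5.89.

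Gpc2, a glypican of developing neurons, depended on how its reads were assigned. Its named transcripts were at 12.9, 5.45 and 0 FPKM in SCPs and 0.444, 1.26 and 0.502 in RSCs, so SCP 3 lay below every RSC sample. The log2 fold change was -1.40 (95% interval -3.76 to 0.97, adjusted p = 0.283). With the unnamed transcripts at the locus added, SCPs were at 34.6, 24.5 and 24.6 FPKM and RSCs at 2.42, 1.26 and 0.502. The groups were then far apart, with a log2 fold change of -3.66 (SE 0.31, adjusted p = 1.02e-04).

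Syndecans, the transmembrane heparan sulfate proteoglycans, split into a pair that was higher in RSCs and a pair that was higher in SCPs. Sdc4, a syndecan of focal adhesions, was at 4.35, 7.37 and 4.11 FPKM in SCPs and 64.6, 61.7 and 63.1 in RSCs, a log2 fold change of 3.39 (SE 0.21, adjusted p = 1.05e-04). Sdc1, best known from epithelia and plasma cells, was at 36.0, 27.0 and 21.1 and at 7.15, 7.85 and 10.3 FPKM, and no SCP sample overlapped an RSC sample. Its log2 fold change was -1.60 (SE 0.23, adjusted p = 0.0026). Sdc2 was at 6.75 to 13.3 FPKM in SCPs and 26.6 to 29.7 in RSCs (log2 fold change 1.39), and its named transcript carried a low-data mark in 5 of 6 samples. Sdc3, the neural syndecan, was at 77.8 to 85.9 and 50.1 to 54.1 FPKM (log2 fold change -0.64). From named transcripts, the sum of the syndecans differed less, at 125 ± 6.55 FPKM in SCPs and 152 ± 1.64 in RSCs (SD, n = 3). Sdc4 went from 4.2% to 41.5% of this sum and Sdc3 from 65.2% to 34.2%. The sum and shares leave out the unnamed Sdc2 transcripts.

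Agrin (Agrn), the basal lamina proteoglycan that gathers acetylcholine receptors at the muscle synapse, was at 97, 101 and 125 FPKM in SCPs and 32.1, 21.0 and 36.6 in RSCs, without overlap. Its log2 fold change was -1.85 (SE 0.22, adjusted p = 0.00123), and -1.98 with unnamed transcripts added.

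Among the membrane-spanning chondroitin sulfate proteoglycans, Cspg4 (NG2), found on mural cells, glial progenitors and nerve fibroblasts, was at 2.44, 5.45 and 3.45 FPKM in SCPs and 21.2, 21.9 and 18.5 in RSCs. It was the only one of the 3 called, with a log2 fold change of 2.22 (SE 0.25, adjusted p = 0.00101). The part of those other cells was not tested. Cspg5 was at 3.43, 6.21 and 6.20 and at 5.24, 6.41 and 4.22 FPKM, and its log2 fold change was 0.02 (95% interval -0.64 to 0.69, adjusted p = 0.952). Ptprz1, a receptor phosphatase with chondroitin sulfate chains that binds tenascins and pleiotrophin, was at 20.5, 23.6 and 34.6 and at 22.7, 16.6 and 21.1 FPKM. Its groups overlapped, with a log2 fold change of -0.34 (95% interval -0.90 to 0.21, adjusted p = 0.263). Its 6844-base transcript held 32.3% to 35.8% of the named Ptprz1 FPKM in SCPs and 49.5% to 59.3% in RSCs.

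Tenascin-C (Tnc), the matricellular glycoprotein of wounds and of the embryonic nerve, was at 38.9, 36.5 and 40.4 FPKM in SCPs and 106, 75.5 and 132 in RSCs. All RSC samples were higher, and they varied more, with a log2 fold change of 1.38 (SE 0.20, adjusted p = 0.00271). The Tnc transcripts of 7075 and 7349 bases were listed at 0 in all SCP samples and were each above 0 in 2 of 3 RSC samples. Tnr, the tenascin of the central nervous system, was at 0.0578 to 0.412 FPKM in SCPs and 0 to 0.152 in RSCs and was not tested.

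Sparc, a collagen-binding matricellular protein made by Schwann cells and fibroblasts, was at 626, 763 and 852 FPKM in SCPs and 2428, 2446 and 2488 in RSCs. It ranked 111 and 14 among all genes, and its log2 fold change was 1.73 (SE 0.12, adjusted p = 1.47e-04). The 2029-base transcript held 69.9% ± 0.928 (SD, n = 3) of it in SCPs and 68.9% ± 1.74 in RSCs, so the makeup of Sparc overlapped between the groups. Sparcl1, its relative, was at 9.61, 12.1 and 12 and at 30.1, 38.4 and 32.2 FPKM, a log2 fold change of 1.5 (SE 0.15, adjusted p = 5.83e-04).

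All 3 thrombospondins tested were over 4-fold higher in RSCs, where 7.81% of all tested genes were. Thrombospondin-2 (Thbs2), which restrains blood vessel growth and matrix turnover, was at 0.621, 2.47 and 2.45 FPKM in SCPs and 189, 164 and 162 in RSCs. That was a log2 fold change of 6.0 (SE 0.32, adjusted p = 6.48e-05), next to decorin among the members on this scale. The order depends on the pseudocount, and with 0.1 in place of 1 Prelp (6.72) stood beside Thbs2 (6.67) and below decorin (7.05). Thrombospondin-4 (Thbs4), on chromosome 2 from 22343727 to 22385855, is a pentameric form known from muscle, tendon and nerve. It was at 5.69, 35.0 and 38.3 and at 698, 769 and 719 FPKM. SCP 1 stood apart from the other SCP samples, and the log2 fold change was 5.11 (SE 0.69, adjusted p = 0.00187) with it and 4.28 without it. Thrombospondin-1 (Thbs1), an activator of TGF-β, was at 6.43, 7.91 and 9.41 and at 65.4, 65.2 and 40.8 FPKM, a log2 fold change of 2.69 (SE 0.23, adjusted p = 3.59e-04). Its named transcript was marked as low data in all 6 samples, and with unnamed transcripts added Thbs1 was at 17.6 to 19.1 FPKM in SCPs and 117 to 193 in RSCs.

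Periostin (Postn), a collagen-binding matricellular protein of perichondrium, periosteum and other embryonic connective tissue, was the member that fell most. It lies on chromosome 2 of rn6, from 143656818 to 143688087. It was at 468, 611 and 630 FPKM in SCPs and 18.0, 8.05 and 29.5 in RSCs, and went from rank 137 of all genes to rank 3726. The log2 fold change was -5.03 (SE 0.44, adjusted p = 3.64e-04), which placed it at the 0.2 percentile of all tested genes. Its 3286-base transcript, the longest of the 4 expressed, held 52.9%, 61.9% and 58.9% of its named FPKM in SCPs and 0%, 39.3% and 0% in RSCs. Of the 6 chondrogenic and limb mesenchyme markers with rows, 2 were higher in every SCP sample and 1 in every RSC sample. Among all tested genes, 33.7% and 24.9% were. Most of the markers' sum was Col2a1, at 58.6 to 103 FPKM in SCPs and 0.139 to 0.570 in RSCs. The part of such cells was not tested.

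**Figure D4:**
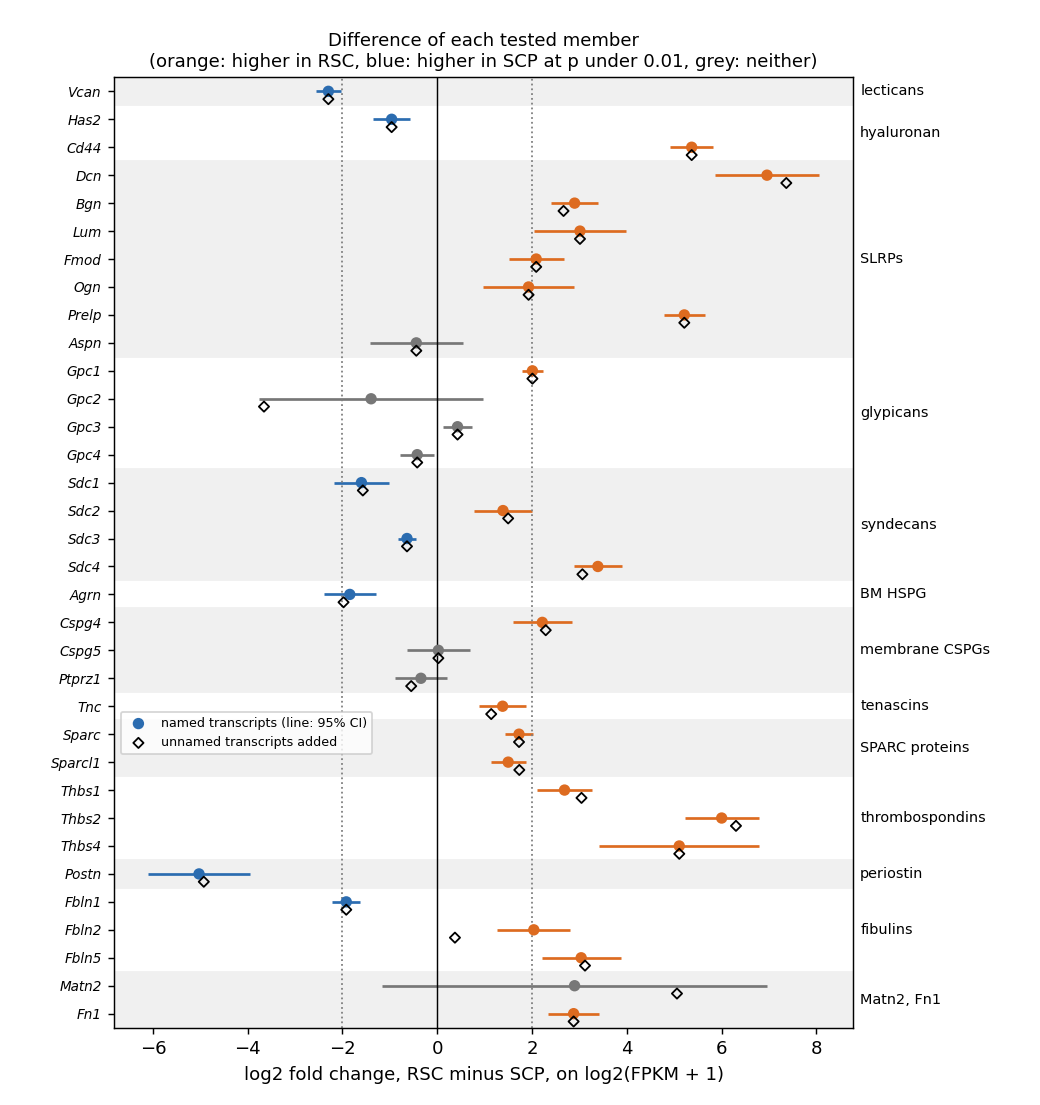
Log2 fold change (RSC minus SCP, on log2(FPKM + 1)) of the 34 tested members, as points with the 95% confidence interval, and as open diamonds with unnamed transcripts added; dotted lines mark 4-fold. Dcn at 6.96 and Postn at -5.03 are the extremes, and the diamonds of Gpc2, Fbln2 and Matn2 lie far from their points.

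Fibulins, glycoproteins of elastic fibres and basement membranes, also split. Fbln1 was at 206, 165 and 166 FPKM in SCPs and 42.5, 50.6 and 46.0 in RSCs, with no overlap and a log2 fold change of -1.92 (SE 0.12, adjusted p = 1.11e-04). Its makeup turned over at the same time, since the 2248-base transcript held 79.3% ± 2.28 (SD, n = 3) of it in SCPs and 36.0% ± 5.86 in RSCs, and the 2787-base transcript the rest. Fbln5, needed for elastic fibre assembly, was at 5.78, 16.1 and 12.4 and at 91.6, 99.5 and 91.7 FPKM, a log2 fold change of 3.04 (SE 0.34, adjusted p = 9.15e-04). Fbln2 was at 3.44, 2.13 and 4.30 and at 23.4, 12.1 and 15 FPKM from named transcripts, a log2 fold change of 2.04 (SE 0.31, adjusted p = 0.00311). The Fbln2 call ended with unnamed transcripts added, at 16.5, 17.6 and 26 and at 23.4, 29.1 and 25 FPKM, where the groups overlapped and the log2 fold change was 0.37 (adjusted p = 0.117).

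Fibronectin (Fn1), the adhesive glycoprotein of provisional and wound matrix, was at 97.7, 177 and 124 FPKM in SCPs and 909, 1080.3 and 885 in RSCs. It was the third highest member in RSCs, with a log2 fold change of 2.88 (SE 0.22, adjusted p = 2.36e-04). The groups used different listed transcripts: those of 8331 and 7707 bases held all of Fn1 in SCPs and were listed at 0 in all RSC samples, whereas those of 7791 and 7716 bases held all of it in RSCs and were listed at 0 in all SCP samples. Cufflinks divides reads among long overlapping transcripts by a model, so such a clean switch describes its estimates. Matrilin-2 (Matn2), an adaptor protein of the nerve matrix, was at 0.771, 2.89 and 0 FPKM in SCPs and 46.7, 58.7 and 0 in RSCs. RSC 3 was listed at 0, and the log2 fold change of 2.90 (95% interval -1.16 to 6.96, adjusted p = 0.202) did not pass. Its unnamed transcripts held most of the level, and with them added SCPs were at 5.20, 6.79 and 9.69 FPKM and RSCs at 268, 255 and 276. All 3 RSC samples were then far above the SCP samples, with a log2 fold change of 5.06 (SE 0.19, adjusted p = 4.51e-06).

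The enzymes that build and edit the sugar chains were taken as lists written by hand. Of 108 related pathway genes, 73 were tested, and 21 were higher in RSCs and 11 in SCPs, so that 43.8% were called, against 40.5% of all tested genes. With unnamed transcripts added, 27 were higher in RSCs and 19 in SCPs, where 8040 of 14019 tested genes were called against 5268 of 13003. On adjusted p, 16 were higher in RSCs and 9 in SCPs, where 4105 of 13003 tested genes were called. Among the genes called above, Has1, Spock2, Vtn, Hpse and Fbln7 had a mean under 1 FPKM in SCPs. Chsy3, Nell2 and Edil3 had one in RSCs, so all of these passed the filter only through the other group. Of 12 tested genes that make the linker sugar and the chain precursors, shared by all these proteoglycans, 0 were called in either direction at p under 0.01 in limma, and 3 (Ugdh, Pxylp1 and Papss1, named after their values were seen) had an unadjusted p under 0.05. Without RSC replicate 1, 1 linker or precursor gene was higher in RSCs, and with unnamed transcripts added 1 was called in each direction. Ugdh, which makes glucuronic acid for the chains, was at 63.5 to 70.1 FPKM in SCPs and 52.0 to 56.6 in RSCs.

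Chondroitin and dermatan sulfate synthesis had 5 genes higher in RSCs and 2 in SCPs of 14 tested, where 18.1% and 22.4% of all tested genes were. Without SCP replicate 2 or 3 or RSC replicate 1 or 2, 1 was higher in SCPs, and with the highest transcript per gene 3 were higher in RSCs. With median-of-ratios scaling or the filter at 5 FPKM, 1 was also higher in SCPs. On adjusted p, 4 were higher in RSCs and 1 in SCPs. Chst12, a chondroitin 4-O-sulfotransferase, was at 3.04, 4.2 and 0.525 FPKM in SCPs and 30.2, 29.0 and 29.9 in RSCs, a log2 fold change of 3.27 (SE 0.46, adjusted p = 0.00224). Csgalnact1, which starts a chondroitin chain, was at 1.03 to 1.14 and 11.3 to 17.9 FPKM, a log2 fold change of 2.82 (SE 0.22, adjusted p = 2.32e-04). Both were above every SCP value in every RSC sample. Chsy3, a chain-extending synthase, was at 1.85 to 2.07 FPKM in SCPs and 0.0274 to 0.114 in RSCs (log2 fold change -1.47), and Chst14, the dermatan 4-O-sulfotransferase, at 15.8 to 21.3 and 8.36 to 11.7 (-0.85).

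Heparan sulfate synthesis and editing had 4 genes higher in RSCs and 3 in SCPs of 16 tested, or 43.8% called against 40.5% of all tested genes. With unnamed transcripts added 7 were higher in SCPs, where 8040 of 14019 tested genes were called in either direction. Without RSC replicate 3, with a replicate block or on adjusted p, 2 were higher in RSCs. Sulf1, which removes 6-O-sulfate from the chain outside the cell, was at 11.2, 47.1 and 32.5 FPKM in SCPs and 2.72, 2.95 and 3.27 in RSCs, a log2 fold change of -2.76 (SE 0.50, adjusted p = 0.00599). Sulf2, its partner enzyme, was at 211, 126 and 175 and at 46.5, 37.9 and 14.4 FPKM, a log2 fold change of -2.46 (SE 0.45, adjusted p = 0.00625). Hs6st2, which adds 6-O-sulfate, was at 11.3, 11.3 and 13.1 and at 2.09, 1.63 and 1.46 FPKM, a log2 fold change of -2.24 (SE 0.18, adjusted p = 2.6e-04). Hs6st1, another enzyme that adds it, went the other way, at 9.85, 12.2 and 12.2 and at 34.8, 46.0 and 36.7 FPKM, a log2 fold change of 1.69 (SE 0.15, adjusted p = 4.17e-04). Glce, the epimerase that makes iduronic acid, was higher in RSCs, at 10.0 to 12.3 and 27.7 to 39.1 FPKM (1.5).

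**Figure D5:**
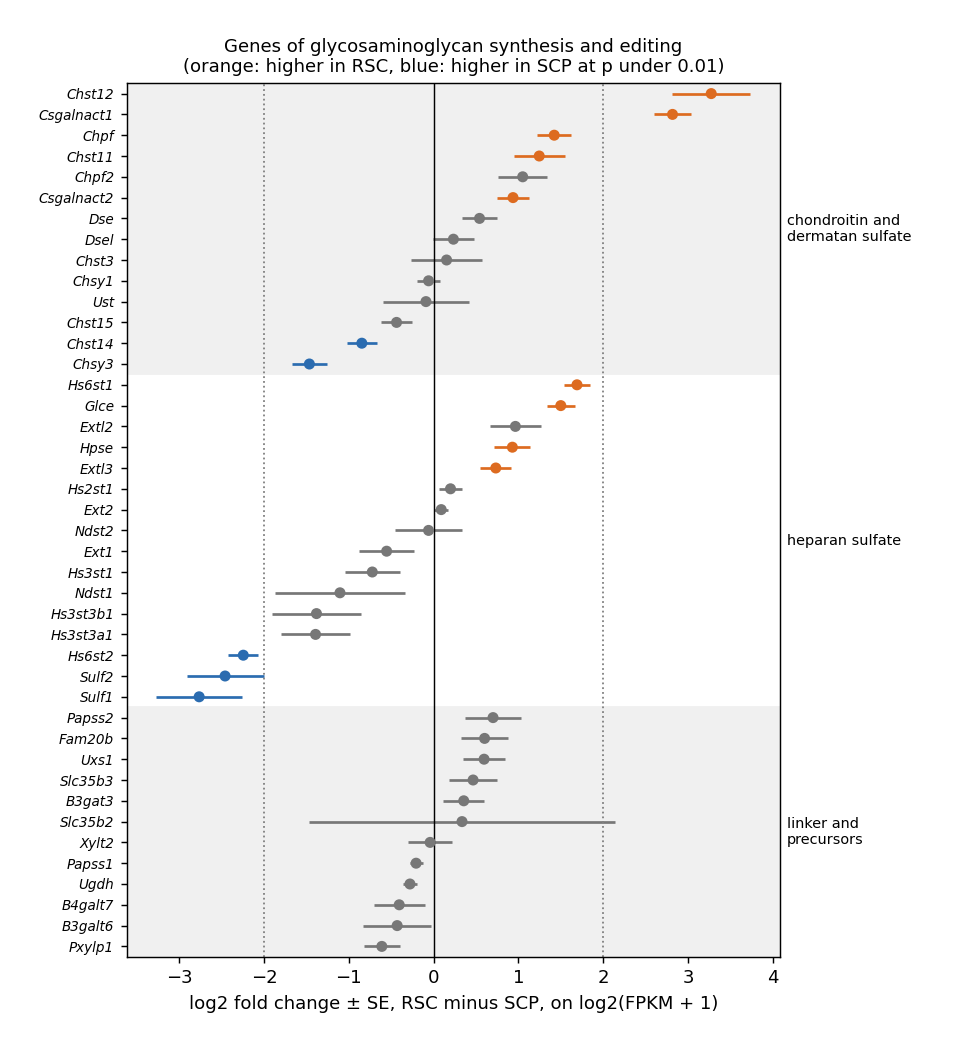
Log2 fold change (RSC minus SCP, on log2(FPKM + 1)) with its SE of the tested genes of chondroitin and dermatan sulfate synthesis, of heparan sulfate synthesis and editing, and of the shared linker and precursors; dotted lines mark 4-fold. Chst12 (3.27) and Csgalnact1 (2.82) lie furthest to the RSC side, Sulf1 (-2.76), Sulf2 (-2.46) and Hs6st2 (-2.24) furthest to the SCP side, and no linker or precursor gene is coloured.

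Of 9 tested hyaluronan genes outside the members, 3 were higher in RSCs and 2 in SCPs, the latter close to the 22.4% of all tested genes. Without RSC replicate 1 or 2, with a replicate block or with median-of-ratios scaling, 1 was higher in SCPs. On adjusted p, 2 were higher in RSCs and 1 in SCPs. Stab1 and Lyve1, hyaluronan receptors of macrophages and lymphatic endothelium, were at 0 to 4.84 and 15.5 to 36.9 FPKM and at 3.10 to 11.2 and 33.6 to 55.5 FPKM (log2 fold changes 3.16 and 2.85). Has1, another hyaluronan synthase, was listed at 0 in all SCP samples and was at 3.85, 4.41 and 4.92 FPKM in RSCs. Hyal2, a hyaluronidase, was at 29.4 to 30.0 and 12.7 to 18.4 FPKM (-0.96), and Tmem2, a cell surface hyaluronidase, at 45.0 to 64.3 and 27.2 to 33.8 (-0.78). Of 4 other proteoglycan core proteins tested, Srgn, the granule proteoglycan of leukocytes, was at 1.10 to 2.1 and 20.1 to 27.0 FPKM (3.28), and Spock2 at 0 to 0.869 and 6.55 to 7.48 (2.39). No other of these 4 was called, where 18.1% of all tested genes were higher in RSCs and 22.4% in SCPs.

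Of 18 other matricellular and matrix glycoprotein genes tested, 7 were higher in RSCs and 4 in SCPs, where 18.1% and 22.4% of all tested genes were, so the SCP count was near that of all genes. Spp1 (osteopontin), a cytokine-like matrix protein of injured nerve and of macrophages, was at 3.20, 4.74 and 1.83 FPKM in SCPs and 176, 147 and 161 in RSCs, a log2 fold change of 5.31 (SE 0.26, adjusted p = 5.49e-05). Vtn (vitronectin) was at 0.130 to 0.459 and 11 to 14.7 FPKM (3.49). Nell2, a secreted neural glycoprotein, was at 8.07, 12.2 and 13.3 and at 0.711, 1.04 and 0.961 FPKM, a log2 fold change of -2.66 (SE 0.24, adjusted p = 4.06e-04). Ctgf, a matricellular target of TGF-β and YAP, was at 153, 149 and 178 and at 34.6, 29.6 and 23.5 FPKM, a log2 fold change of -2.43 (SE 0.16, adjusted p = 1.29e-04).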

How the data were processed

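The authors prepared RNA from 3 SCP and 3 RSC preparations by Trizol after enzymatic dissociation. Per the submitters' processing notes, FastQC 0.11.2, TopHat2 2.1.0 and Cufflinks 2.2.1 were used with the rn6 genome. The authors deposited 1 transcript table from Cufflinks per sample. It holds FPKM, normalized by them for transcript length and mapped fragments, and the coverage signal of each transcript. No counts were given, so absolute depth is unknown and no counting interval can be set. Relative depth, the median ratio of deposited coverage to FPKM, was 0.93, 1.00 and 0.88 of the deepest sample in SCPs and 0.80, 0.84 and 0.79 in RSCs.

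FPKM of named transcripts were summed by symbol. Date-like names had replaced the symbol of 77 transcripts per sample, which were left out, as were stray spreadsheet cells in 3 to 13 rows. Unnamed transcripts entered only the alternative so named. They held 31.9%, 27.9% and 26.1% of the FPKM in SCPs and 23.4%, 18.8% and 18.6% in RSCs. Levels from named transcripts thus left out a larger share of the FPKM in SCPs. The 2 groups were compared by limma 3.58.1 under R 4.3.3 (two-sided, eBayes with a variance trend) on log2(FPKM + 1), for the 13003 genes averaging 1 FPKM or more. The pseudocount understates the change of low genes. A call is an unadjusted p under 0.01, and a 4-fold call also needs a log2 fold change past 2. Adjusted p is by Benjamini and Hochberg across the tested genes. On simulated data, for this comparison and 13003 genes, 97.5% of 200 genes changed by a log2 fold change of 3 were called, 0% in the wrong direction, with 1.06% of the unchanged genes. The changed genes were drawn only from those at higher levels, so recovery at low levels was not measured. Tables were handled with pandas 2.3.3 and figures drawn with matplotlib 3.10.9.

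Members, lists and tests were chosen with earlier results of these data known. The related and marker lists were written by hand. In each class the tested members with the largest and smallest log2 fold change and all members over 4-fold are given in full, and of each related list up to 2 genes with the largest change in each direction. Replicate numbers come from the labels. Deviations from the group means correlated at 0.0435, -0.0049 and 0.0259 between samples with the same number, so the numbers were not taken as pairs. As alternatives, the scaling was by quantiles or by median of ratios, the pseudocount 0.1, the filter none or 5 FPKM, the fit without trend or with a replicate block, and the call on adjusted p. Others left out each sample, took a gene's highest transcript only, added unnamed transcripts, dropped a 0 where a sample of its group reached 5 FPKM, or used the ratio of group means.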

Additional observations from a re-analysis of the deposited data

How the results depend on the processing

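All 27 called members kept their direction under every alternative run, and 26 of the 34 tested members kept both direction and call in all of them. Of 608 member values under alternatives, 591 kept direction and side of the threshold, 5 lost the call, 8 gained it and 4 reversed. The reversals were in members without a call: Cspg5 (0.02) at -0.21 without SCP replicate 1, -0.10 without RSC replicate 2 and -0.020 with the highest transcript per gene, and Ptprz1 at 0.21 with the highest transcript. Leaving out 1 sample kept Cspg5 between -0.21 and 0.15. Calls were lost by Ogn without any RSC replicate, by Tnc with the highest transcript (0.86) and by Fbln2 with unnamed transcripts added. Calls were gained by Gpc2 and Matn2 when a sample or value listed at 0 was left out (-2.48 and 4.81) or unnamed transcripts were added (-3.66 and 5.06), by Ptprz1 with unnamed transcripts (-0.55), and by Gpc3 with median-of-ratios scaling. Hapln1, under the filter, was called with unnamed transcripts added (-1.44), and Bcan, Ncan, Hapln1 and Omd with no filter. With unnamed transcripts added, 19 related pathway genes were higher in SCPs against 11, and 8040 of 14019 tested genes were called against 5268 of 13003. The median of all genes was then -0.24 against -0.17, and 40.4% of calls were higher in RSCs against 44.6%. With no filter the median log2 fold change of the members was 1.38 against 1.83, since Bcan, Ncan, Hapln1, Omd, Acan and Tnr entered. Median-of-ratios scaling moved the median of all genes from -0.17 to 0.01 and the share of calls higher in RSCs from 44.6% to 55.5%, and 21 and 7 members were then called. With the replicate number as a block, 20 members were higher in RSCs and 7 in SCPs, as without it, while 4275 genes were called over the table; this changed no member's call. Leaving out 1 sample gave 19 to 20 members higher in RSCs and 7 to 8 in SCPs. Absolute depth is unknown, so no detection limit can be set for members under 1 FPKM.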
